A study of Mus musculus with 12 samples.

Results

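Imprinted genes were followed in the fetal mouse testis at embryonic days E13.5, E15.5 and E17.5 in a reference strain and a strain with another chromosome 19. A list of 35 imprinted genes was taken, 15 of them expressed from the maternal and 20 from the paternal allele. A gene counted as measured where at least 1 probe set of the array is annotated to it alone, and its brightest such probe set over all arrays stands for it. This held for 32 of the 35 genes, 14 maternally and 18 paternally expressed, out of 18193 genes with such a representative. Dio3 and Zrsr1 have no probe set of their own, and the probe set of H19 is shared with a microRNA gene, so these 3 genes have no value. The measured genes have 90 probe sets, and 12 genes rest on a single probe set. Snrpn has 1 of its own besides 6 that it shares with Snurf.

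An imprinted gene is transcribed mainly from the copy inherited from a given parent. DNA methylation laid down in the germ line of either the mother or the father marks a control region near the gene and is kept in body cells. The methylated copy need not be the transcribed one. In germ cells the inherited marks are erased while the cells colonise the gonad, and in the male new marks are written in the arrested germ cells of the fetal testis. Many paternally expressed genes are known to favour fetal growth and many maternally expressed genes to restrain it, and many of them are turned down as growth slows after birth. An array measures the summed RNA of both alleles over all cells of the organ, so these values say nothing on which allele was read.

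Total RNA came from male genital ridges, the embryonic gonads. One strain was 129/Sv, and the other, 129.MOLF-Chr 19 (M19), is a chromosome substitution line whose chromosome 19 comes from MOLF mice while the rest of its genome is that of 129/Sv. Both strains were sampled at E13.5, E15.5 and E17.5 with 2 arrays per strain and stage, 12 arrays in all. Per the labels 40 testis pairs went into a pool for 2 arrays, so both arrays of a group may share a pool and the p-values may measure technical spread alone. None of the 35 genes lies on chromosome 19. In RNA of a whole organ, fewer cells of a type and less RNA per cell cannot be told apart.

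Imprints are methyl groups on CG dinucleotides of control regions, which were not among the sequences at hand. The sequence before the transcription start is shown instead for the genes the results turn on, and whether a window overlaps a control region was not examined. RefSeq (GRCm38.p6) gives such a window of 250 bases for 28 of the 32 measured genes, 44 windows in all because some genes have several starts. A window of these genes held a median of 10 CG dinucleotides, against 6 over all 32851 windows. The 5 windows below belong to genes that fell with stage (Nnat, Mest, Kcnq1ot1, Igf2r) and to the flat neighbour of the most variable gene (Meg3). They lie at chr2:157559828-157560077 (plus strand, inside Blcap), chr6:30737800-30738049 (plus, inside a longer Mest model), chr7:143296548-143296797 (minus, inside Kcnq1), chr17:12769707-12769956 (minus, inside Airn) and chr12:109540746-109540995 (plus, between genes). Each reads 5′ to 3′ on the gene's strand, with CG in capitals.
Nnat: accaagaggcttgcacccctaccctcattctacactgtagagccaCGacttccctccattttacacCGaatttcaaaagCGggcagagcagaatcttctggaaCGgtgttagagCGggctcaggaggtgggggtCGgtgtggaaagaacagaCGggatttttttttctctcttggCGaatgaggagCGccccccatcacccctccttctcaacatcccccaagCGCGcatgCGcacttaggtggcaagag
Mest: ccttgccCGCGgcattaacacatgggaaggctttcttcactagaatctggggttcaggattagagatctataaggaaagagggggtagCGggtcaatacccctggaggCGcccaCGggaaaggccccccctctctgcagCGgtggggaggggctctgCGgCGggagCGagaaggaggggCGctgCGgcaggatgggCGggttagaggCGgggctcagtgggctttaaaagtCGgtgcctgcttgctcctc
Kcnq1ot1: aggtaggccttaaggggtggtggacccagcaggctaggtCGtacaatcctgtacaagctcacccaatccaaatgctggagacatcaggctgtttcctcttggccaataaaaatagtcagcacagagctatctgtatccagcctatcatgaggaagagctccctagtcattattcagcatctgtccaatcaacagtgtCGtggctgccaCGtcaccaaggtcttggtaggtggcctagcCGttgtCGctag
Igf2r: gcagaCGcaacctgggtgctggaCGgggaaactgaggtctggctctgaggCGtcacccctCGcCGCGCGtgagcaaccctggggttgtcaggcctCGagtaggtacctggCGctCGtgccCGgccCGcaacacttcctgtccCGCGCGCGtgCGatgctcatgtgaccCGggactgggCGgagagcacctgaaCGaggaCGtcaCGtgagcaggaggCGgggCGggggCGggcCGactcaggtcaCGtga
Meg3: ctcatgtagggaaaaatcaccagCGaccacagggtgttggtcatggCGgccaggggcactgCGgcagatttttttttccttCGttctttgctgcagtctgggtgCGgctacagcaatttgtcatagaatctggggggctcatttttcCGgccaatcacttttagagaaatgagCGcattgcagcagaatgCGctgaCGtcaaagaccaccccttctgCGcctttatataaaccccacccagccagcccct
The Igf2r window held 27 CG dinucleotides, the Mest window 14, the Nnat window 12, the Meg3 window 10 and the Kcnq1ot1 window 5. The letters TGCCGC, which are the core of the motif bound by the imprint-keeping protein ZFP57, occurred on either strand in 7 of the 44 windows (15.9%) and in 8.7% of all windows, and the Mest window held 2 of them. The letters TATAAA, frequent in core promoters, occurred on either strand in 9 of the 44 (20.5%) and in 12.4% of all windows. These matches describe the windows and do not show a bound site.

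The array is an Affymetrix mouse genome design, and each value is a probe set's signal on a scale taken as log2, where 1 unit is a doubling. Array medians ran from 8.1 to 8.27, and 26 of the 32 representatives had a mean over the arrays that exceeded 8.17, the median probe set. Those below it were Peg10, Magel2, Mkrn3, Phlda2, Nap1l5 and Kcnq1. The precision of every value is limited by how few arrays there were. Replicate 1 of 129/Sv at E13.5 stood apart. The control probes for 18S rRNA read 9.69 there and 6.88 to 8.38 on the other arrays, and 24.3% of all genes and 9 of the 32 imprinted genes had their highest value there. Both 129/Sv arrays at E15.5 had more signal from marker genes of other tissues. The summed signal of 12 skeletal muscle markers was 12.81 to 12.88 on them and 11.37 to 11.87 on the other 10 arrays, that of 10 epidermis markers 13.92 to 13.97 against 11.84 to 12.24, and that of 10 cartilage and tendon markers 12.68 to 12.78 against 11.55 to 12.02, with no marker at 0 on any array.

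Between E13.5 and E17.5 the 32 measured genes of the main list were called lower more often than higher, and those called lower were mostly paternally expressed. By the sign of the difference alone, 17 were lower and 15 higher. With the strains averaged, 12 of 32 genes changed (limma, adjusted p under 0.05), 8 lower and 4 higher at E17.5. Over all genes 27.3% changed, 10.9% lower and 16.3% higher, so the share of imprinted genes called was 37.5% against 27.3%, and the share called lower 25% against 10.9%. Of the 18 paternally expressed genes 7 were lower and 2 higher, and of the 14 maternally expressed genes 1 was lower and 2 were higher. The median difference was -0.11 in the paternally and 0.06 in the maternally expressed genes, against 0.06 over all genes. These shares are descriptions, since no test compares the groups of genes, and they hold for the main list alone. In the further list described below, maternally expressed (Cdkn1c, Asb4) and paternally expressed genes (Peg12) fell, and others rose. In the same span all 10 measured fetal Leydig cell markers rose, with a median difference of 1.74, as did 7 of 12 Sertoli cell markers and 8 of 11 interstitial and peritubular markers. Mesonephros markers fell in 5 of 8 genes and red blood cell markers in 3 of 6, and the part of such cell types in the imprinted genes' changes was not tested. The summed signal of the Leydig list was 14.04 to 14.31 at E13.5 and 15.78 to 16.02 at E17.5, that of the mesonephros list 12.79 to 12.87 and 11.4 to 11.67, and no marker was at 0.

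**Figure D1:**
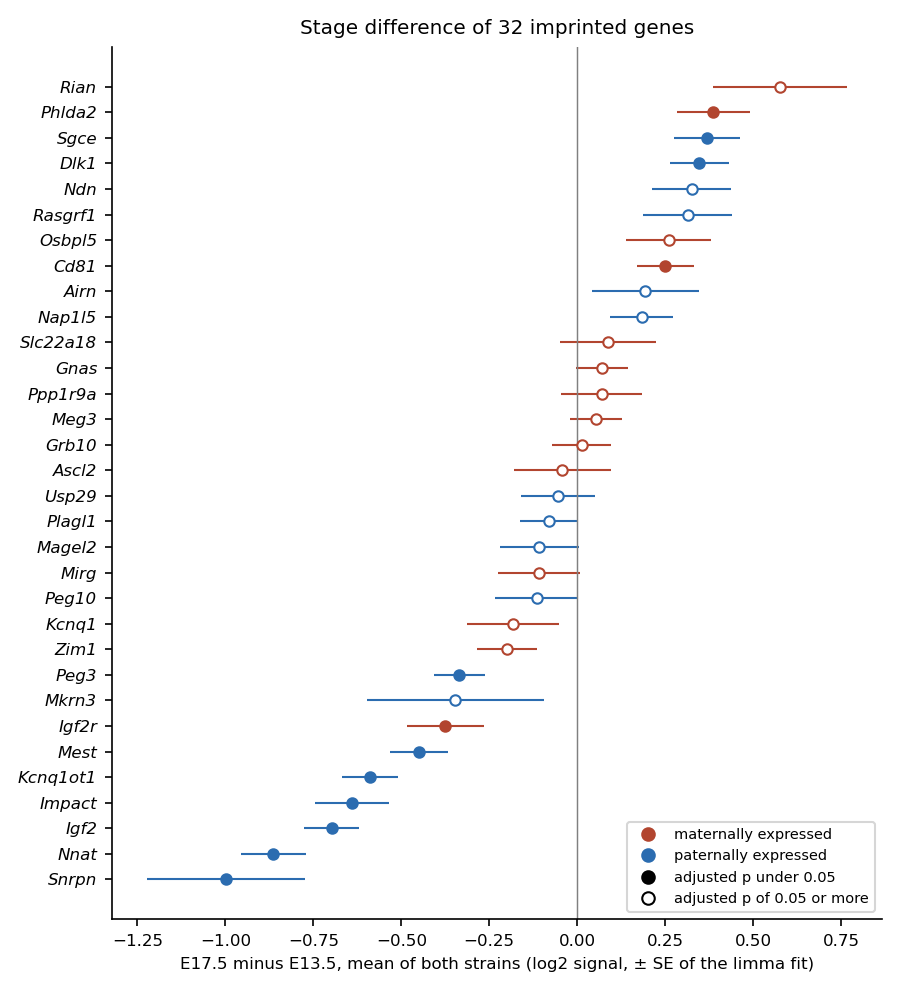
Difference between E17.5 and E13.5, averaged over the strains, for the 32 measured imprinted genes in order of size (log2 signal; bars are the standard error of the limma fit on all 12 arrays). Filled points passed an adjusted p of 0.05: 8 genes at the low end from Snrpn (-1.0) to Peg3 (-0.33), 7 of them paternally expressed, and 4 at the high end from Cd81 (0.25) to Phlda2 (0.39); Rian at 0.58 has a wide error and did not pass.

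The growth factor and its receptor both fell. Igf2 (chr7:142650768-142666816), which encodes insulin-like growth factor 2, the main fetal growth factor, is paternally expressed. Its signal at E13.5 was 14.01 and 14.17 in 129/Sv and 14.04 and 13.99 in M19. At E15.5 it was 13.62 and 13.64 in 129/Sv and 13.37 and 13.48 in M19, and at E17.5 13.29 and 13.40 in 129/Sv and 13.38 and 13.34 in M19. The 4 E17.5 arrays lay below all E13.5 arrays, with no overlap. The difference over the span was -0.70 ± 0.08 (SE; adjusted p = 0.00011), which is 1.62-fold lower, and a dimmer second probe set fell by 1.30 ± 0.16 on the log2 scale. The probe sets differed in timing. The brighter one changed by -0.52 ± 0.08 from E13.5 to E15.5 (adjusted p = 0.0013) and by -0.18 ± 0.08 after it (adjusted p = 0.21). The dimmer one changed by -0.42 ± 0.16 in the first step (adjusted p = 0.13) and by -0.88 ± 0.16 in the second (adjusted p = 0.0078).

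Igf2r (chr17:12682406-12769706), maternally expressed, encodes the receptor that carries insulin-like growth factor 2 to lysosomes for breakdown. It read 11.26 and 11.41 in 129/Sv and 11.40 and 11.48 in M19 at E13.5, and 11.18 and 10.76 in 129/Sv and 10.93 and 11.18 in M19 at E17.5. All E17.5 arrays were below all E13.5 arrays, and the difference was -0.37 ± 0.11 (adjusted p = 0.032). It missed the threshold in 5 of 12 fits that each left out 1 array. Without replicate 2 of 129/Sv at E13.5 the difference was -0.34 (adjusted p = 0.071), without replicate 1 or 2 of M19 at E13.5 it was -0.39 or -0.35 (0.075 and 0.11), without replicate 2 of 129/Sv at E17.5 -0.27 (0.11) and without replicate 1 of M19 at E17.5 -0.31 (0.12). A fit without the E15.5 arrays gave an adjusted p of 0.055. The second Igf2r probe set fell by 0.41 ± 0.09 on the log2 scale (adjusted p = 0.0099). Airn, the paternally expressed antisense RNA that silences Igf2r in cis, did not pass on its representative (0.19 ± 0.15, adjusted p = 0.41), while 2 of its 4 other probe sets fell, by 0.42 and 0.28 on the log2 scale.

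Neither Grb10 nor Plagl1 passed over the span on its representative. Grb10, a maternally expressed adaptor that dampens insulin and growth factor receptors, differed by 0.01 ± 0.08 over the span (95% interval -0.17 to 0.20). Plagl1, a paternally expressed zinc finger factor placed above several imprinted genes, differed by -0.08 ± 0.08 on its representative. A second Plagl1 probe set fell by 0.86 ± 0.12 on the log2 scale to E15.5 (adjusted p = 0.00082) and was still lower at E17.5, at -0.44 ± 0.12 (adjusted p = 0.023). Its values were 11.32 to 11.55 at E13.5, 10.38 to 10.80 at E15.5 and 10.77 to 11.18 at E17.5, so all 4 E15.5 arrays lay below all E13.5 arrays.

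The other paternally expressed genes that fell have unlike products. Nnat (chr2:157560078-157562525), which encodes neuronatin, a small membrane protein of the endoplasmic reticulum, showed the smallest adjusted p of the 32 genes over the span. Its values in 129/Sv were 12.12 and 12.40 at E13.5, 11.63 and 11.79 at E15.5, and 11.23 and 11.45 at E17.5. In M19 they were 12.09 and 12.12, then 11.64 and 11.59, then 11.34 and 11.26. Each stage lay wholly below the one before it in both strains, and the span was -0.86 ± 0.09 (adjusted p = 7.5e-05), or 1.82-fold lower. Mest (chr6:30733506-30748466), which encodes a hydrolase-like protein of mesoderm, fell from 13.43 to 13.61 on the E13.5 arrays to 12.93 to 13.17 on the E17.5 arrays, a difference of -0.45 ± 0.08 (adjusted p = 0.0028). Impact, a regulator of translation under stress, read 9.79 to 10.05 at E13.5 and 9.08 to 9.39 at E17.5, a difference of -0.64 ± 0.11 (adjusted p = 0.0014). In Mest and Impact, too, the E17.5 and E13.5 arrays did not overlap.

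Kcnq1ot1 (chr7:143213111-143296547) is the long RNA that starts within Kcnq1 on the paternal copy and silences the genes around it. In 129/Sv it read 8.67 and 8.72 at E13.5, 8.35 and 8.52 at E15.5 and 8.22 and 8.07 at E17.5. In M19 it read 8.85 and 8.78, then 8.21 and 8.12, then 8.16 and 8.22. Its span was -0.59 ± 0.08 (adjusted p = 0.00041), and 3 of its 5 other probe sets fell as well, by 0.94, 0.52 and 0.34 on the log2 scale. Among the representatives of the maternally expressed genes of this domain in the main list, 2 were called, both higher, where 16.3% of all genes rose and 10.9% fell. Cdkn1c, a maternally expressed gene of the further list described below, is not counted here and fell over the span. Phlda2, a pleckstrin homology protein that restrains placental growth, rose by 0.39 ± 0.10 (adjusted p = 0.022), from 7.19 to 7.73 at E13.5 to 7.72 to 7.85 at E17.5, with overlap at 1 E13.5 array, replicate 1 of 129/Sv. Cd81, a tetraspanin membrane protein, rose by 0.25 ± 0.08 (adjusted p = 0.047), from 13.06 to 13.19 at E13.5 to 13.29 to 13.42 at E17.5 with no overlap.

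Of the other maternally expressed genes near Kcnq1ot1, Ascl2, a transcription factor of the placenta, differed by -0.04 ± 0.14 over the span, the potassium channel gene Kcnq1 by -0.18 ± 0.13, the transporter gene Slc22a18 by 0.09 ± 0.14 and the lipid carrier gene Osbpl5 by 0.26 ± 0.12. None of these 4 representatives passed, and their 95% intervals together ran from -0.47 to 0.53. Both dimmer probe sets of Ascl2 fell, by 0.54 ± 0.15 (adjusted p = 0.026) and 0.61 ± 0.15 (adjusted p = 0.012) on the log2 scale. The rises of Phlda2 and Cd81 were the less stable calls of this domain. Phlda2 missed without replicate 2 of M19 at E13.5 (adjusted p = 0.096), replicate 1 of 129/Sv at E17.5 (0.074) or replicate 1 of M19 at E17.5 (0.079). Cd81 missed in 9 of 12 such fits, with adjusted p from 0.068 to 0.14, and passed there without replicate 2 of 129/Sv at E13.5 or either 129/Sv array at E15.5. It also missed with each array centred on its median (0.21, adjusted p = 0.11) and without the E15.5 arrays (adjusted p = 0.07).

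In the Peg3 domain of chromosome 7 the paternally expressed Peg3, a large zinc finger protein, fell and its neighbours did not pass. Peg3 (chr7:6703892-6730462) read 13.47 to 13.56 on the 4 E13.5 arrays, and 13.14 and 13.10 in 129/Sv and 13.25 and 13.24 in M19 at E17.5. The stages did not overlap, and the span was -0.33 ± 0.07 (adjusted p = 0.0079). The 2 next brightest Peg3 probe sets fell further, by 0.60 ± 0.11 and 0.79 ± 0.09 on the log2 scale. Usp29, a paternally expressed protease gene, differed by -0.05 ± 0.10, and the maternally expressed zinc finger gene Zim1 by -0.20 ± 0.09 (adjusted p = 0.12).

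In the Snrpn domain, whose loss on the paternal copy causes Prader-Willi syndrome in humans, Snrpn fell on its single own probe set. The representatives of the others did not pass. Snrpn encodes a protein of the splicing machinery, and its single own probe set read 9.29 and 8.81 in 129/Sv and 9.19 and 8.87 in M19 at E13.5. At E15.5 it read 8.59 and 9.80 in 129/Sv and 8.32 and 8.07 in M19, and at E17.5 it lay between 7.88 and 8.15 on all 4 arrays. Those E17.5 values are below the median probe set (8.17), and the 6 probe sets shared with Snurf were not examined. The E17.5 arrays were below all E13.5 arrays, a difference of -1.0 ± 0.22 (adjusted p = 0.009), while the value of 9.80, on replicate 2 of 129/Sv at E15.5, was the highest of all 12. Ndn, a growth-restraining protein of the MAGE family, went the other way. Its span was 0.32 ± 0.11 (adjusted p = 0.063) with all E17.5 arrays (12.78 to 13.16) above all E13.5 arrays (12.54 to 12.76), and 2 of its 7 other probe sets passed, at 0.36 ± 0.10 and 0.33 ± 0.10. The MAGE gene Magel2 differed by -0.11 ± 0.11. The ubiquitin ligase gene Mkrn3 differed by -0.35 ± 0.25, with 7.02 and 8.14 in 129/Sv at E13.5, so its spread leaves a 95% interval from -0.90 to 0.21.

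Among the remaining genes, Sgce rose. Sgce encodes epsilon-sarcoglycan, a membrane protein, and shares its promoter region with Peg10. It read 9.65 to 9.99 at E13.5 and 10.08 to 10.20 at E17.5, without overlap, a difference of 0.37 ± 0.09 (adjusted p = 0.016). It missed without replicate 2 of M19 at E13.5 (adjusted p = 0.073) or replicate 2 of 129/Sv at E17.5 (0.061). Peg10, derived from a retrotransposon, was dim, with a mean of 7.09, and differed by -0.12 ± 0.12. The scaffold gene Ppp1r9a differed by 0.07 ± 0.11, Gnas, which encodes the stimulatory G protein subunit, by 0.07 ± 0.07, the histone chaperone-like gene Nap1l5 by 0.18 ± 0.09 and the exchange factor gene Rasgrf1 by 0.31 ± 0.13 (adjusted p = 0.10). Both dimmer Rasgrf1 probe sets passed, at 0.59 ± 0.12 and 0.42 ± 0.12.

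Counted by arrays alone, all 4 E17.5 arrays lay below all 4 E13.5 arrays in 8 of the 32 genes, against 14.5% of all genes, and these are the same 8 genes that were called lower. They lay above in 4 genes (Dlk1, Ndn, Sgce and Cd81), against 18.1% of all genes. Of the 90 probe sets of these genes 31 were called, against 22.5% of all probe sets. Of the 31, 21 were lower and 10 higher, and shares by direction over all probe sets are not given here. Genes with several probe sets count several times in these numbers. Igf2, Peg3, Mest, Snrpn, Kcnq1ot1, Impact and Nnat were called in each of the 12 fits that left out 1 array. The count of 12 fell to 7, all of them lower, without replicate 2 of M19 at E13.5, to 8 without replicate 2 of 129/Sv at E17.5, and to 10 without the E15.5 arrays.

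**Figure D2:**
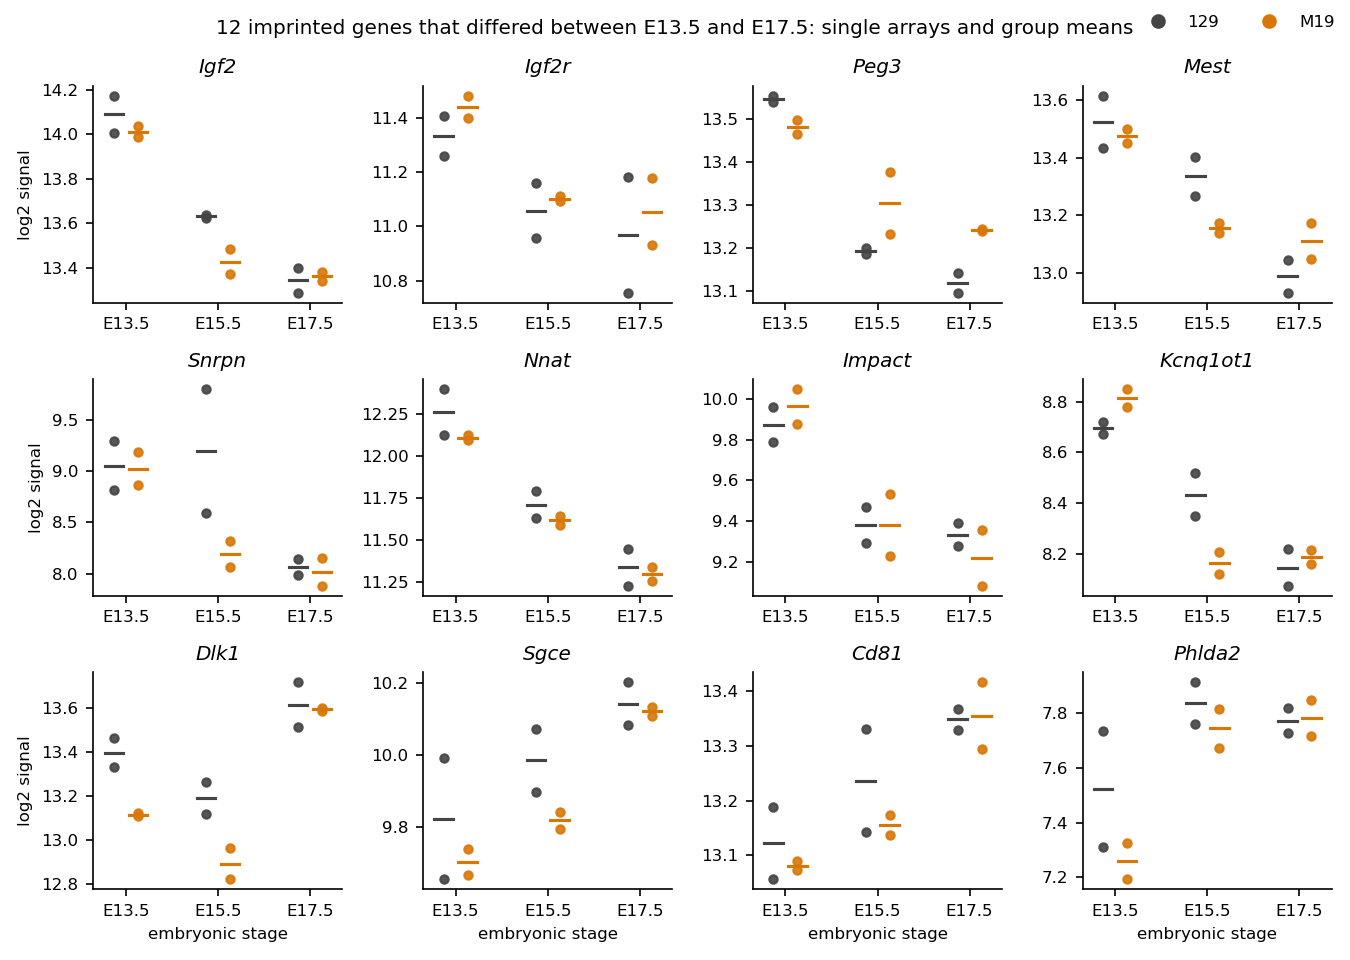
Signal on each array (points, log2) and group means (lines) by stage and strain (129 marks 129/Sv) for the 12 imprinted genes that differed between E13.5 and E17.5, each panel on its own axis. Igf2 (its brighter probe set), Nnat, Impact and Kcnq1ot1 are lower at E15.5 than at E13.5 in both strains, the Snrpn point at 9.80 is replicate 2 of 129/Sv at E15.5, and Dlk1 is highest at E17.5.

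Both steps between stages were tested apart. From E13.5 to E15.5, 7 of 32 genes changed, against 14.3% of all genes, with 6 lower (4.52% of all genes) and 1 higher (9.8%). Impact (-0.54 ± 0.11), Igf2, Nnat (-0.52 ± 0.09), Kcnq1ot1 (-0.46 ± 0.08), Peg3 (-0.27 ± 0.07, adjusted p = 0.04) and Rian (-0.68 ± 0.19, adjusted p = 0.043) were lower, and Phlda2 (0.40 ± 0.10, adjusted p = 0.032) was higher. The count fell to 4 without either M19 array of E13.5 or of E15.5. From E15.5 to E17.5, 2 of 32 genes changed, Rian and Dlk1, both higher, against 9.04% of all genes. With an intensity trend in the fit the counts were 10 for the first step and 6 for the second. In 129/Sv alone the first step called Rian, Nnat and Igf2 lower (3 of 32, against 6.3% of all genes) and in M19 alone Kcnq1ot1, Igf2 and Impact (3 of 32, against 7.4%). The second step called Rian in 129/Sv (1 of 32, against 2.42%) and Dlk1 in M19 (1 of 32, against 3.23%). Calls in 1 strain and not in the other do not show a difference between strains, and the interaction test called 0 of 32 genes, with 1, Rian, at an unadjusted p under 0.05; over all genes it called 0.203%. Each step within a strain compares 4 arrays, and its calls hang on single arrays. Without replicate 1 of 129/Sv at E15.5 the first step in 129/Sv called 0 genes, and without either M19 array of E13.5 that in M19 called 0. Without replicate 1 of 129/Sv at E15.5 the first step of Rian in 129/Sv was -1.09 (adjusted p = 0.12), and it also missed without replicate 2 of 129/Sv at E13.5 (-0.93, adjusted p = 0.052). In the second step the Rian call of 129/Sv was lost without replicate 1 of 129/Sv at E15.5 or either 129/Sv array of E17.5, and the Dlk1 call of M19 without any 1 of the M19 arrays of E15.5 and E17.5.

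The Dlk1-Dio3 domain of chromosome 12 held the 2 genes that changed in the second step. Dlk1 (chr12:109452485-109463336), paternally expressed, encodes a membrane protein related to the Notch ligands that keeps progenitor cells immature. In 129/Sv it read 13.33 and 13.46 at E13.5, 13.12 and 13.26 at E15.5 and 13.51 and 13.71 at E17.5. In M19 it read 13.12 and 13.11, then 12.82 and 12.96, then 13.58 and 13.60. All E17.5 arrays were above all earlier ones, and the second step was 0.56 ± 0.08 (adjusted p = 0.0033), called in each of 12 fits without 1 array. The span was 0.35 ± 0.08 (adjusted p = 0.014), with adjusted p of 0.051, 0.059 and 0.056 without replicate 1 or 2 of M19 at E13.5 or replicate 2 of 129/Sv at E17.5. A dimmer Dlk1 probe set went the opposite way, at -0.94 ± 0.21 over the span (adjusted p = 0.0082). It read 8.60 to 9.25 at E13.5 and 7.69 to 8.24 at E17.5, and with the mean of both probe sets the second step was -0.02 and the span -0.30 (adjusted p = 0.07). So the rise holds for the brighter Dlk1 probe set alone.

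The maternally expressed RNAs of the domain come from a long stretch of transcription that is known to host clusters of small nucleolar and micro RNAs. Meg3 (chr12:109540996-109571729), the first of them, was flat, with values of 13.11 to 13.41 on all 12 arrays and a span of 0.05 ± 0.07 (95% interval -0.11 to 0.22). Of its 11 probe sets 1 passed, at 0.42 ± 0.11. Mirg, the host of a microRNA cluster at the far end, differed by -0.11 ± 0.12. Rian (chr12:109603945-109661716), the host of small nucleolar RNAs between them, varied most of the 32 genes. It read 9.87 and 10.75 in 129/Sv and 9.94 and 10.38 in M19 at E13.5, 8.67 and 9.22 in 129/Sv and 10.22 and 10.10 in M19 at E15.5, and 10.47 and 10.72 in 129/Sv and 11.12 and 10.94 in M19 at E17.5. Both 129/Sv arrays at E15.5 lay below the other 10 arrays, a pattern that 1.64% of all genes share.

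In 129/Sv Rian fell by 1.37 ± 0.27 on the log2 scale to E15.5 (adjusted p = 0.015) and then rose by 1.65 ± 0.27 (adjusted p = 0.012), 3.14-fold. In M19 the first step was 0.01 ± 0.27 (95% interval -0.59 to 0.60) and the second 0.86 ± 0.27 (adjusted p = 0.14). The averaged second step of 1.26 ± 0.19 (adjusted p = 0.0034) was called in each of 12 fits without 1 array, and the averaged first step in 2 of 12. A second Rian probe set had the same low values on the 129/Sv E15.5 arrays, 8.36 and 8.69 against 9.16 to 10.10 elsewhere, with -0.69 ± 0.17 for the first step (adjusted p = 0.021) and 0.77 ± 0.17 for the second (adjusted p = 0.021). The other 2 Rian probe sets differed by -0.09 ± 0.11 each over the span and did not pass in either step. The arrays on which Rian was low are those with the skin, muscle and cartilage markers, and the part of those tissues in its level was not tested.

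**Figure D3:**
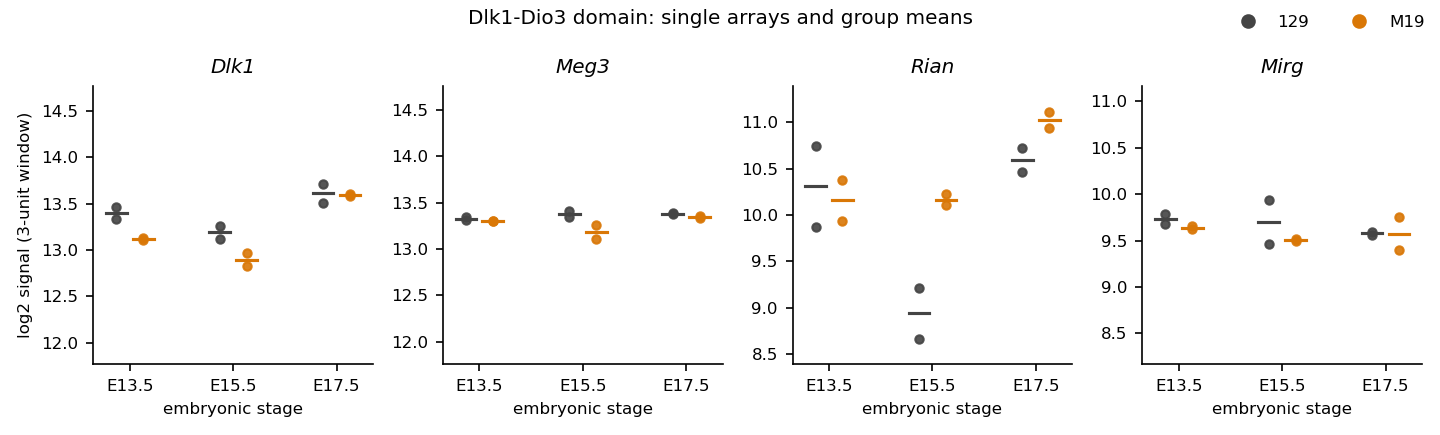
Signal on each array (points, log2) and group means (lines) of the 4 measured genes of the Dlk1-Dio3 domain, in their order along the chromosome and each on an axis of 3 log2 units. Meg3 and Mirg vary little, Dlk1 is highest at E17.5 in both strains, and the Rian values of 8.67 and 9.22 for 129/Sv at E15.5 lie below the other 10.

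No imprinted gene passed the test between M19 and 129/Sv at any stage. At E13.5, E15.5 and E17.5 limma called 0 of 32 genes each time, against 0.033%, 0.682% and 0.0934% of all genes, and averaged over the 3 stages 0 of 32, against 0.462%. At an unadjusted p under 0.05 there were 1, 5, 0 and 3 genes in these comparisons. Averaged over the stages, the 95% interval of the difference lay within 0.5 log2 units of 0 for 29 of 32 genes and within 1 unit for all 32. With 2 arrays a group, a difference at a single stage had a median standard error of 0.15, and differences well above that size could still miss. Gnas at E15.5, at -0.35 ± 0.10, had an adjusted p of 0.33 (limma). At a single stage the 95% interval lay within 0.5 log2 units of 0 for 17 genes at E13.5, 21 at E15.5 and 24 at E17.5.

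At E13.5 the differences, as M19 minus 129/Sv, ran from -0.32 (Usp29) to 0.25 (Mkrn3). They were below 0 in 27 of 32 genes, and in 66.95% of all genes, and replicate 1 of 129/Sv, with its higher 18S signal, is 1 of the 4 arrays compared. At E15.5 the range was -1.0 (Snrpn) to 1.22 (Rian) and at E17.5 -0.16 (Ppp1r9a) to 0.43 (Rian). Rian at E15.5 was 2.33-fold higher in M19, at 1.22 ± 0.27 (adjusted p = 0.11; 95% interval 0.63 to 1.82). Both M19 arrays lay above both 129/Sv arrays, as they did in 18.1% of all genes, and the 129/Sv arrays are those with markers of other tissues. It passed without either 129/Sv array of E13.5 (adjusted p = 0.021 both times) and with the replicate number as a block (0.042), and over all its alternatives the adjusted p ran from 0.021 to 0.65. The difference of 1.22 was the same in those fits, which change the estimate of the spread and with it the adjusted p.

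Snrpn at E15.5 was lower in M19 on average (-1.0 ± 0.32, adjusted p = 0.38), with 9.80 on replicate 2 of 129/Sv and 8.59 on replicate 1. Without replicate 2 of 129/Sv at E15.5 the difference was -0.39, and without replicate 1 it was -1.61 (adjusted p = 0.015). Dlk1 read lower in M19 at E13.5 (-0.28 ± 0.12) and E15.5 (-0.30 ± 0.12, adjusted p = 0.56) and passed at neither stage. Its difference at E17.5 was -0.02 ± 0.12, and the interaction test did not call it. Averaged over the stages it was -0.20 ± 0.07 (adjusted p = 0.78). Gnas at E15.5 was -0.35 ± 0.10 (adjusted p = 0.33) and Kcnq1ot1 -0.27 ± 0.11 (adjusted p = 0.6). Igf2, the fetal growth factor, differed between the strains by -0.09 ± 0.06 over the stages (95% interval -0.23 to 0.05), and Peg3 by 0.06 ± 0.06 (-0.08 to 0.19).

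**Figure D4:**
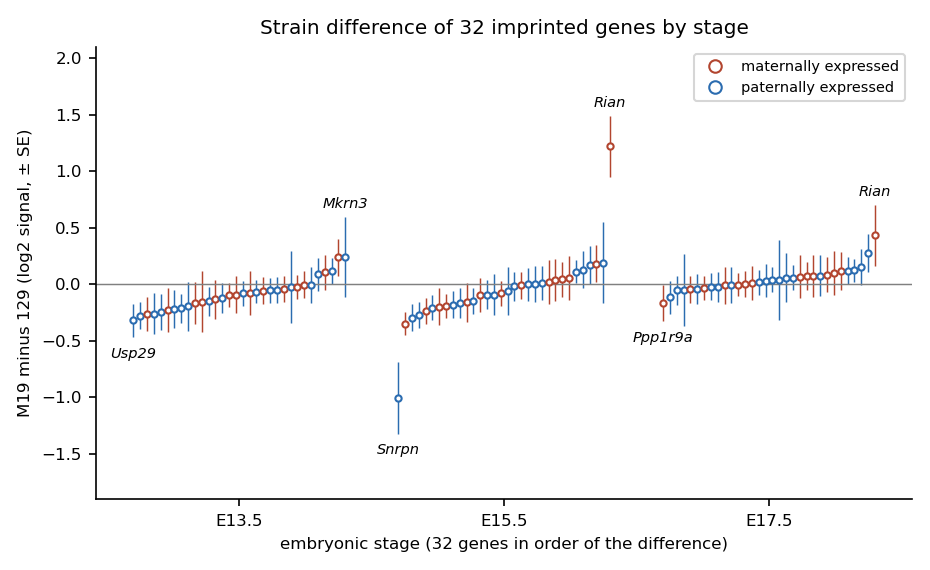
Strain difference (M19 minus 129/Sv, log2 signal) of the 32 imprinted genes at each stage, in order of size within a stage; bars are the standard error of the limma fit. Open points mark that none passed an adjusted p of 0.05; most points lie near 0, and Rian (1.22) and Snrpn (-1.0) stand off at E15.5.

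A further 33 imprinted genes outside the main list were taken beside these, of which 28 were measured. Over the span 6 rose and 5 fell, where 16.3% of all genes rose and 10.9% fell. Cdkn1c, a maternally expressed inhibitor of cyclin-dependent kinases, fell by 1.02 ± 0.08 on the log2 scale (adjusted p = 1.1e-05), from 12.38 to 12.61 at E13.5 to 11.33 to 11.57 at E17.5. Asb4, a maternally expressed gene of vessel formation, fell by 1.07 ± 0.13 and the paternally expressed Peg12 by 0.90 ± 0.14. The polycomb-related Sfmbt2 rose by 1.13 ± 0.16, the coagulation inhibitor gene Tfpi2 by 0.89 ± 0.09 and the matrix proteoglycan gene Dcn by 0.78 ± 0.08.

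Of the 22 measured factors that write, keep and erase imprints, 4 rose and 8 fell over the span, where 16.3% of all genes rose and 10.9% fell. Dnmt3l, the cofactor that the male germ line needs to write imprints, rose by 2.89 ± 0.08 (adjusted p = 3.2e-09), from 7.54 to 8.15 at E13.5 to 10.55 to 10.75 at E17.5. Kdm1b, a histone demethylase needed for imprints in oocytes, rose by 2.87 ± 0.15, and Ehmt2, a histone methyltransferase, by 0.63 ± 0.12. Dppa3, which shields imprints in the early embryo, fell by 3.45 ± 0.09 (adjusted p = 1.4e-09), Tet1, which helps to erase methylation, by 1.32 ± 0.19, and the chromatin remodeller Hells by 0.83 ± 0.12. Between strains, 2 of these 22 genes were called at E15.5, both higher in M19, against 0.682% of all genes. Over the 3 stages 1, Dnmt3b, was called (0.73 ± 0.09, adjusted p = 0.0054), against 0.462% of all genes. Dnmt3b, a DNA methyltransferase, read 9.24 and 9.50 in 129/Sv and 10.49 and 10.33 in M19 at E15.5, a difference of 1.04 ± 0.16 (adjusted p = 0.018). Dppa3 read 11.31 and 11.58 in 129/Sv and 12.35 and 12.19 in M19, a difference of 0.82 ± 0.12 (adjusted p = 0.014). Germ cell markers moved in the same comparison, with 4 of 16 higher in M19, and their part was not tested. These were Dppa5a, Nanog, Sox2 and Dppa3 itself, which is in both lists. The 129/Sv arrays of E15.5 are also those with the skin, muscle and cartilage markers. The part of those tissues in the differences of Dnmt3b and Dppa3 was not tested.

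Of 16 measured genes of the insulin-like growth factor axis, in which Igf2 acts, 4 rose and 5 fell over the span, where 16.3% of all genes rose and 10.9% fell. Igf1, the growth factor that takes over after birth, rose by 1.74 ± 0.11 (adjusted p = 9.2e-07), from 10.19 to 10.55 at E13.5 to 11.70 to 12.31 at E17.5. The protease genes Htra1 and Pappa, whose products cut binding proteins of the pathway, rose by 1.57 ± 0.09 and 0.89 ± 0.18, and the binding protein gene Igfbp6 by 1.05 ± 0.10. The binding protein gene Igfbp2 fell by 0.82 ± 0.12 on the log2 scale, Igfbp5 by 0.68 ± 0.08 and the adaptor gene Irs1 by 0.56 ± 0.12. Igf2 fell over the same days in which Igf1 rose.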

How the data were processed

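Total RNA of 12 testis samples was hybridised to 1 array each, per the labels. The deposited values, 1 per probe set and array, are taken as log2 signal from their range up to 15.03; the summary method, normalization and log base are not given in the sources used here. Of 45101 probe sets 64 controls were left out. The platform annotation maps 34945 of the other 45037 to 1 gene, and RefSeq names (GRCm38.p6) matched 34741, which gave 18193 genes, each by its brightest probe set.

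limma 3.58.1 (R 4.3.3) fitted 6 group means to all 45037 probe sets with eBayes (6 residual and 4.82 prior degrees of freedom). Tests are two-sided, and p-values were adjusted over all probe sets by Benjamini-Hochberg. The stage effects averaged over strains, the strain effects and their interaction are contrasts of this fit. Python 3.11.15, pandas 2.3.3 and matplotlib 3.10.9 made tables and plots, and the fit was tested on simulated data. Intervals are 95% intervals of the model. A list's summed signal is the log2 of the summed linear values of its representatives.

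All 32 measured genes are named. Of the other lists, not every called gene is named. The members and lists were chosen with earlier results of these data known. Alternatives were quantile normalization, median centring, a filter on dim probe sets, an intensity trend, robust eBayes, a replicate block, gene means, subsets of arrays and leaving out each array.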

Additional observations from a re-analysis of the deposited data

Results flagged for a closer look

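No imprinted gene was marked. In the lists of cell type markers measured beside them, 18 genes had a strain difference that itself changed with stage, by the F test of the strain by stage interaction (limma, adjusted p from 1.9e-05 to 0.048). Most are genes of skin, skeletal muscle, cartilage and tendon, which were high on the 129/Sv arrays of E15.5. The F values were 276.3 for Krt1, 121.4 for Krt15, 106.1 for Perp, 100.4 for Krtdap, 78.1 for Krt10 and 77.6 for Krt5, all genes of the epidermis. In skeletal muscle they were 251.1 for Actc1, 88.1 for Myl1, 87.9 for Myh3, 75.7 for Mylpf, 54.7 for Myh8, 51.8 for Tnnc2 and 26.4 for Acta1. In cartilage and tendon they were 177.3 for Kera, 140.2 for Col2a1 and 85.1 for Tnmd. Among germ cell markers they were 52.6 for Dppa5a and 34.1 for Morc1.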

How the results depend on the processing

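Over all alternatives, 7369 recomputed values of single imprinted genes kept their direction where they were called and their side of the threshold, 110 no longer passed, 95 newly passed and 2 reversed. Both reversals were Dlk1 with the mean of its probe sets, at -0.0188 for the second step and -0.2961 for the span. Counts of imprinted genes called moved by over 1.5 times as follows. The strain difference at E15.5 went from 0 to 1 with an intensity trend (Gnas) and to 1 with the replicate block (Rian). With the trend, the averaged second step went from 2 to 6, the second step in 129/Sv from 1 to 4, the first step in M19 from 3 to 6 and the second from 1 to 3. With gene means, the first step went to 5 in each strain and the second to 2 in 129/Sv and 0 in M19. Median centring left 1 gene in the first step of 129/Sv. On the compared arrays alone, the counts were 0 for the first step in 129/Sv, 6 for that in M19 and 2 for the second step in M19.

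Leaving out each array in turn gave 7 to 16 genes for the span, 4 to 10 and 2 to 3 for the averaged first and second steps, 0 to 3 and 0 to 1 for the steps in 129/Sv, 0 to 5 and 0 to 2 for those in M19, 0 to 1 for the strain difference at E15.5, and 0 for the other strain comparisons and the interaction. Replicate numbers were not used to pair the arrays in the main fit. Same-numbered arrays deviated with correlations from -0.373 to 0.539 over 15 pairs of groups. Among 129/Sv at E13.5, 129/Sv at E15.5 and M19 at E17.5 they were 0.539, 0.505 and 0.538, so some groups shared part of their deviations. The replicate block gave 13 genes for the span and changed no strain count but that at E15.5.

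Over all probe sets the main counts were 23, 258, 44 and 189 for the strain differences at E13.5, E15.5, E17.5 and over the stages, 66 for the interaction, 4950, 3016 and 10122 for the averaged steps and span, 2072 and 777 for the steps in 129/Sv and 2461 and 1052 for those in M19. The filter on dim probe sets gave 150, 22 and 120 for the strain differences at E15.5, at E17.5 and over the stages, and 23 for the interaction. Gene means gave 11, 25 and 125 at E13.5, at E17.5 and over the stages, 3127 for the averaged first step and 5693 for the span. Without the E15.5 arrays there were 13 at E13.5 and 34 over the stages. The compared arrays alone gave 0 at E13.5, 443 and 429 for the steps in 129/Sv and 5549 for the first step in M19. Without 1 array the strain counts ran from 8 to 32, 84 to 351, 14 to 52 and 92 to 251, the interaction from 27 to 90, the averaged steps from 2863 to 5551 and 1130 to 4933, the span from 5941 to 14159, the steps in 129/Sv from 1230 to 2739 and 218 to 1277, and those in M19 from 938 to 3242 and 173 to 1896. The cause of these moves was not tested.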

Other observations

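Several imprinted genes had dimmer probe sets that passed over the span where the representative did not. The 2 of Ascl2 that fell are dim, with means of 6.16 and 5.81. Slc22a18, a membrane transporter gene, had 1 that rose by 0.30 ± 0.09 (adjusted p = 0.034). The single dimmer Sgce probe set, at a mean of 6.96, was flat at 0.04 ± 0.08 while its representative rose, and the 2 dimmer Impact probe sets differed by -0.20 and 0.08 while its representative fell.

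Replicate 2 of 129/Sv at E15.5 held the highest value of the 12 arrays for 6 of the 32 genes, against 8.56% of all genes: Meg3, Mirg, Snrpn, Phlda2, Gnas and Osbpl5. The dimmer Dlk1 probe set was also highest there, at 9.43 against 7.69 to 9.25 on the other arrays.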
